A study of Mus musculus with 4 samples.

Results

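Gene-end peaks called only in lysine are regions of H3K79me2 enrichment that lay at an end of a protein-coding gene in lysine-treated dendritic cells and had no called counterpart in cells given PBS. A peak was a member if it stood in the lysine broad peak list, overlapped no PBS broad peak by even 1 bp, and had its midpoint no more than 1 kb from the start or the end of a protein-coding gene. The members were thus chosen by 2 measured values, position and the lack of PBS overlap, which are described here and not tested. The 769 members were 16.1% of the 4788 lysine peaks at gene ends, which is the background against which the counts here are read, and the full lysine list held 9805 peaks. Across the whole lysine list, without regard to genes, 24.7% of peaks overlapped no PBS peak. The mirror set, gene-end peaks called only in PBS, held 1123 peaks, or 21.9% of PBS gene-end peaks. The full PBS list was longer, at 11926 peaks, so the 2 shares were taken against lists of unequal length. With the PBS list cut to the length of the lysine list, 1062 of 4788 gene-end lysine peaks had no PBS partner. Such a cut can only add members, and all 769 were kept. The mirror set was not recomputed at that setting.

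The cells were dendritic cells grown from the bone marrow of C57BL/6J mice (BMDCs) in RPMI medium with fetal bovine serum, and such cells take up and present antigen. The tested culture received lysine at 18 mM for 6 h, and the other culture received PBS, for which the labels give no time. Chromatin immunoprecipitation and sequencing for H3K79me2 gave 1 library in each condition, so no difference could be set against a spread between replicates and no test was made. Percentages carry exact (Clopper-Pearson) 95% intervals and medians carry exact order-statistic 95% intervals, which cover counting error only, and members that share a gene or a bidirectional promoter are not independent. Depth is unknown, because read totals do not stand in these lists, and a missing PBS peak means that no peak was called there, not that the mark was absent. Of 18 dendritic cell marker genes, 8 carried a lysine peak and 12 a PBS peak. Of 7 macrophage markers 2 carried a lysine peak and 6 a PBS peak, and of 10 markers of other cells 0 carried a peak in either list. Over all 21900 protein-coding genes, 31.4% carried a lysine peak and 34.0% a PBS peak. These marker counts are small, rest on 1 library in each condition and were not tested.

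H3K79me2 is a histone mark in which a lysine on the globular part of H3 carries a pair of methyl groups. It is placed by the methyltransferase Dot1l, which travels with elongating RNA polymerase II, and it usually covers the first part of transcribed genes downstream of the start. The gene-start peaks described below were mostly narrow, and each set as a whole had its median midpoint slightly upstream of the start. The lysine added to the medium is an essential amino acid, and the same amino acid in the histone is the residue that carries the methyl groups.

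Most members lay at gene starts, and the sequences around some of these starts are shown, although a peak often covers only part of its window. Each window runs from 250 bases before to 50 bases after a RefSeq start (build GRCm38.p6), printed 5′ to 3′ on the strand of the gene. Capitals mark, on either strand, matches to the CCAAT box, to the E-box CACGTG, to the GC box GGGCGG or to the ETS site CCGGAAG. Preb and Invs are shown as 2 of the 10 strongest members, and Mfsd1 as the third farthest from any PBS peak. B3gat3, with 2 CCAAT and 2 CCGGAAG matches, and Zfp710, with few CpG dinucleotides, were chosen for their sequences after the values were seen.
Preb, chr5:30960278-30960577, minus strand: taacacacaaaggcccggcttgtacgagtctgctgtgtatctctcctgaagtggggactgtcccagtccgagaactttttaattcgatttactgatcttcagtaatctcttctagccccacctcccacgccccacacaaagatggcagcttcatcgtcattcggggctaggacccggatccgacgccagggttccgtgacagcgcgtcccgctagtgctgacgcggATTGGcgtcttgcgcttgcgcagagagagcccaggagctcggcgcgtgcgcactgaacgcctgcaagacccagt
Invs, chr4:48279510-48279809, plus strand: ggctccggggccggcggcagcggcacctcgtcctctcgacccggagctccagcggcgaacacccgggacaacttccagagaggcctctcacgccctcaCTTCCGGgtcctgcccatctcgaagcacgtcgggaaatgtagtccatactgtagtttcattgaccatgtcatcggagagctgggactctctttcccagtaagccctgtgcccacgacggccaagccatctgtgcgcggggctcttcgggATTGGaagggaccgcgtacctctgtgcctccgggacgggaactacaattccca
B3gat3, chr19:8920143-8920442, plus strand: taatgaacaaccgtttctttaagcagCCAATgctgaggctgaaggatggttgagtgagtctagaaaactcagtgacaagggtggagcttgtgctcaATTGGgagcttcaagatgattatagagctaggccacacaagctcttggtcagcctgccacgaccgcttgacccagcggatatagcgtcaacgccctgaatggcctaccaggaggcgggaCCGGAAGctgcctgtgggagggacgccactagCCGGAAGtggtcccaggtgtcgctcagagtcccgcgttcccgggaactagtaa
Mfsd1, chr3:67582518-67582817, plus strand: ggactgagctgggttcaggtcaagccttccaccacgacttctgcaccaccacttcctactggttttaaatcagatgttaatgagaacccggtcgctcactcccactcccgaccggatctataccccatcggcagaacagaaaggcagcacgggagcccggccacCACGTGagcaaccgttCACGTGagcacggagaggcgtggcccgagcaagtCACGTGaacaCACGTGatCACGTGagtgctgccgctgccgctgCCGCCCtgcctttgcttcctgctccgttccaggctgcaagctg
Zfp710, chr7:80024564-80024863, plus strand: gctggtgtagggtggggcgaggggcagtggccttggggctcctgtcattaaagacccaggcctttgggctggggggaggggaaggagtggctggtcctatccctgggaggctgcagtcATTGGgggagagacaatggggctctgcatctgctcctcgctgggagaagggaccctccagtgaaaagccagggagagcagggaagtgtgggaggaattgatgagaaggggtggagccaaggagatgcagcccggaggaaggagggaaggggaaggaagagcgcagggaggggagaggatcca

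The Preb window, under the 550 bp member at the gene of the Sec12 exchange factor for vesicle export from the endoplasmic reticulum, had 58.0% GC and a CpG observed over expected ratio of 0.96. This ratio is the number of CpG dinucleotides divided by the number that the C and G content alone would give. In the Mfsd1 window CACGTG occurred 5 times and CCAAT 0 times. CACGTG is the core of the E-box read by several basic helix-loop-helix factors, and Mfsd1 encodes a lysosomal transporter. B3gat3, an enzyme that builds the linker of proteoglycans, carried a 502 bp member at chr19:8920138-8920639 with a fold enrichment of 6.02 over local background. The Zfp710 window, at a 614 bp member with a fold enrichment of 3.65, had a CpG ratio of 0.17, against a median of 0.822 over the members' windows.

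The members were narrower and weaker than gene-end lysine peaks that had a PBS partner. Their median width was 387 bp (380 to 394, n = 769), against 513 bp (506 to 520, n = 4019) for those with a partner. Their median fold enrichment over local background was 4.03 (3.97 to 4.07), against 5.04 (4.99 to 5.09), and their median −log10 q was 2.72, against 5.12. Fold enrichment and −log10 q are the authors' values for each peak and rank peaks within 1 list. Gene-end peaks called only in PBS had a median fold enrichment of 4.105 and a median −log10 q of 3.04. Their median percentile of −log10 q in the PBS list was 32.1. In the whole lysine list the members' median stood at percentile 29.0 of −log10 q, against 66.8 for gene-end peaks with a partner. These values describe the choice of members, since a wide or strong peak meets a peak of the other list more easily. The share of gene-end lysine peaks without a PBS partner was 44.7% among the weakest 10% by −log10 q and 0 of 479 among the strongest 10%, whose exact interval reaches 0.767%. Within the members, 575 of 769 had a −log10 q of 2 or more, 324 had 3 or more and 83 had 5 or more.

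**Figure D1:**
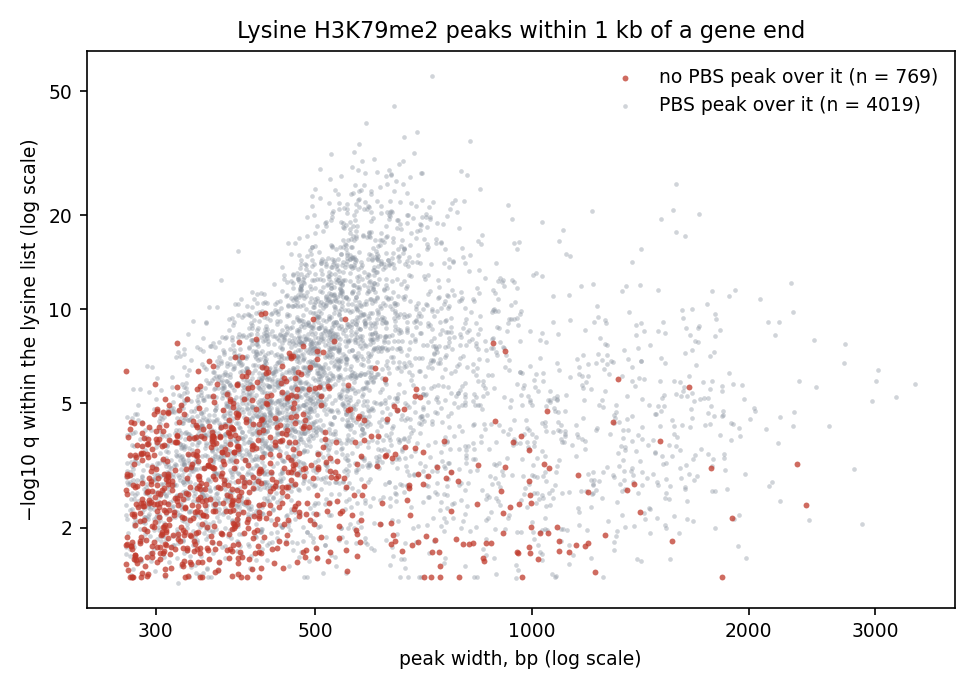
Width in bp (horizontal, log scale) and −log10 q within the lysine list (vertical, log scale) of each lysine peak within 1 kb of a gene end, with the 769 peaks without a PBS peak in red and the 4019 with one in grey. The red points fill the narrow, weak corner and none passes a −log10 q of 9.75.

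Width and strength did not rank the members alike. At −log10 q from 5 to 10 the 83 members had a median width of 448 bp (420 to 463), and the 1389 peaks with a partner in the same range had 522 bp (510 to 531). In that range the members' median fold enrichment was 5.37, against 5.72. That range thus did not match the 2 sets in strength, and cannot show a difference in width apart from it. Below a −log10 q of 2 the median fold enrichment was 3.51 for members and 3.53 for peaks with a partner. The median widths were 367.5 bp (344 to 390) and 431 bp (406 to 487). From 2 to 3 the folds were 3.90 and 3.92, and the widths 376 bp (353 to 389) and 423 bp (407 to 437). From 3 to 5 the folds were 4.51 and 4.55, and the widths 388 bp (375 to 410) and 463 bp (449 to 475). The members were narrower in these ranges too, which was not tested. The member widths ran from 273 to 2406 bp, 103 (13.4%) were under 300 bp and 30 (3.90%) reached 1 kb, against 3.31% and 10.7% of the peaks with a partner. The peaks called only in PBS had a median width of 401 bp (396 to 411), with 11.6% under 300 bp and 7.12% of 1 kb or more. The wide members were not the strong ones, their median −log10 q being 2.20. The gapped list gave no narrow block for 34 members (4.42%), against 1.14% of the peaks with a partner and 4.36% of those called only in PBS. More than 1 block was given for 5 members.

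The strongest member lay at Cmc1, which encodes a mitochondrial factor of cytochrome c oxidase assembly. It covered chr9:118149921-118150346 with a fold enrichment of 6.90 and a −log10 q of 9.75, and its midpoint was 62.5 bp from the gene start. Uqcrfs1, the Rieske iron-sulfur subunit of respiratory complex III, followed with a 420 bp peak at chr13:30545138-30545557, a fold enrichment of 6.85 and a −log10 q of 9.68. Pcyt2, an enzyme of phosphatidylethanolamine synthesis, had a fold enrichment of 6.74 over chr11:120617675-120618170, a peak that also lies within 1 kb of an end of Sirt7. Neither Uqcrfs1 nor Pcyt2 had a PBS peak elsewhere on the gene, while Cmc1 had 1. The nearest PBS peaks were 76100 bp from the Cmc1 member, 36823 bp from the Uqcrfs1 member and 9844 bp from the Pcyt2 member.

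The other 7 of the 10 strongest had fold enrichments of 5.93 to 6.69. Preb had 6.69 over chr5:30960053-30960602, and Coa4, another factor of cytochrome c oxidase assembly, had 6.26 over chr7:100536919-100537332. Invs, which encodes the ciliary protein inversin and shares its promoter region with Erp44, had 6.22. Spast, which encodes the microtubule-severing enzyme spastin, had 6.26 with the midpoint 195.5 bp upstream of the nearest listed start (-195.5 bp) and 868.5 bp inside the gene as the gene table bounds it. Fkbp8, a chaperone of the mitochondrial outer membrane, had the narrowest of these peaks, at 321 bp, and a fold enrichment of 6.24. Gmfb, a regulator of actin branches, had the widest at 884 bp, and Shq1, an assembly factor of H/ACA ribonucleoproteins, had the lowest fold at 5.93. None of these 10 members was found within 2 kb of a PBS peak, the nearest being 2088 bp from the Coa4 member.

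The widest members lay at other genes than the strongest. Tspoap1 carried 2406 bp at chr11:87757415-87759820 with a fold enrichment of 3.65, and a PBS peak of 372 bp lay 496 bp away, outside the gene. Ankrd10 carried 2337 bp at chr8:11635295-11637631 with a fold enrichment of 4.26, with the nearest PBS peak 76891 bp away. The remaining 6 of the 8 widest were at Tlcd1 (1898 bp), Sipa1l1 (1836 bp, a GTPase-activating protein for Rap), Kctd12 (1771 bp), Atp1b3 (1654 bp, a beta subunit of the sodium pump), Parp11 (1567 bp) and Elf2 (1508 bp, a transcription factor of the ETS family). Of these 8, only Atp1b3 had a −log10 q above 5, at 5.63.

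Gene strand was available for 623 members, and 597 of them (95.8%, 93.9 to 97.3) were at the start of the gene, against 97.8% (97.2 to 98.3) of gene-end lysine peaks with a partner and 94.1% (92.4 to 95.6) of those called only in PBS. The other 146 members lie at genes without a strand in the tables used. A start listed in RefSeq stood within 1 kb of the midpoint for 577 of the 597. Their midpoints had a median of -27.0 bp from the start (-34.5 to -13.0, n = 577), negative values being upstream. Peaks with a partner had a median of -61.0 bp (-68.0 to -55.5, n = 3171), and peaks called only in PBS had -27.0 bp (-37.0 to -16.5, n = 783). The midpoint was over 100 bp upstream in 28.2% of members (24.6 to 32.1), against 37.1% (35.4 to 38.8) of peaks with a partner. It was over 100 bp downstream in 19.1% of members (15.9 to 22.5), against 14.7% (13.5 to 16.0). The peaks called only in PBS shared this placement, with 29.1% upstream and 21.6% downstream.

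**Figure D2:**
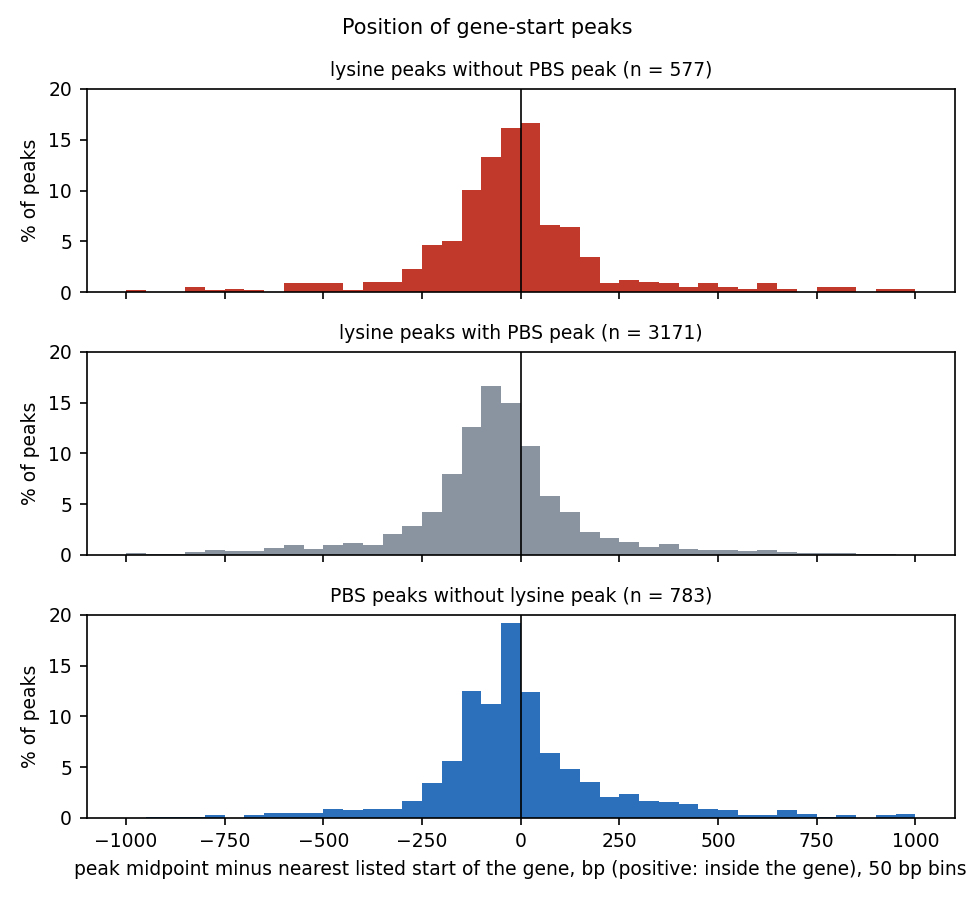
Peak midpoint minus the nearest listed start of the gene in bp (horizontal, 50 bp bins, positive inside the gene) against the percent of peaks (vertical) for 577 start peaks called only in lysine, 3171 lysine peaks with a PBS partner and 783 peaks called only in PBS. The medians are -27.0, -61.0 and -27.0 bp.

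Among members the midpoint lay farther into the gene in the wider classes. Members under 300 bp had a median midpoint of -45.5 bp (n = 75) and members of 300 to 500 bp had -33.0 bp (n = 367). Members of 500 bp to 1 kb had 4.0 bp (n = 109), and those of 1 kb or more had 205.75 bp (n = 26), 61.5% of the last being over 100 bp inside the gene. Among peaks with a partner the median was -47.0 bp under 300 bp (n = 100), -52.0 bp at 300 to 500 bp (n = 1368), -79.5 bp at 500 bp to 1 kb (n = 1359) and 49 bp at 1 kb or more (n = 344), where 48.5% were over 100 bp inside the gene. Over all 577, 22 members (3.81%, 2.40 to 5.72) were centred over 500 bp inside the gene. The share was 2.40% for peaks with a partner and 3.45% for peaks called only in PBS.

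At the 3′ end of the gene lay 26 members, too few to describe as a class. The 5 strongest of them, named after their values were seen, were at Mgll (monoacylglycerol lipase), Gorasp1 (a Golgi stacking protein), Olfr1509, Dnajc15 and Ace (angiotensin-converting enzyme). Their −log10 q values ran from 4.14 to 4.76. The Mgll member, 555 bp at chr6:88827948-88828502, lay on a gene with 2 PBS peaks, and the Ace member of 384 bp lay on a gene with 0.

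Of the motifs searched, the one whose share differed by the most percentage points between members and peaks with a partner was CCAAT, the box bound by NF-Y. It occurred on either strand in 32.8% of the members' windows (28.9 to 36.8, 189 of 577), against 51.8% (1642 of 3171) of windows at peaks with a partner. It occurred in 34.6% (31.3 to 38.1) of windows at peaks called only in PBS and in 38.2% of all 21263 start windows of protein-coding genes. Peak strength moved with this share: among peaks with a partner it was 33.5% below a −log10 q of 2, 38.0% from 2 to 3, 41.7% from 3 to 5, 55.1% from 5 to 10 and 77.1% from 10 up. The members had 31.7%, 27.3%, 37.4% and 38.0% in the first 4 of these ranges, and 0 members in the last. In the range from 5 to 10 the 95% interval was 26.8 to 50.3 for members (n = 71) and 52.1 to 58.0 for peaks with a partner (n = 1104). Strength was not matched within that range, the median fold enrichment being 5.37 for members and 5.72 for peaks with a partner. The intervals in that range therefore cannot separate the motif from peak strength. In the weaker ranges the 2 sets were closer in median fold enrichment. It was 3.51 for members and 3.53 for peaks with a partner below 2, and 3.90 and 3.92 from 2 to 3. From 3 to 5 it was 4.51 and 4.55. The CCAAT intervals were 24.3 to 40.0 and 26.5 to 41.1 below 2, and 21.0 to 34.3 and 33.6 to 42.6 from 2 to 3. From 3 to 5 they were 30.2 to 45.0 and 38.4 to 45.1. The intervals overlapped in each of these ranges, and no test was made.

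Against all start windows, the members differed by the most percentage points in GGGCGG, the GC box, which occurred in 70.7% of their windows, against 46.2% of all windows and 74.4% of those at peaks with a partner. CCGGAAG, a site of ETS factors, occurred in 21.5% of the members' windows against 23% at peaks with a partner and 11.6% of all windows. CACGTG occurred in 14%, against 12.5% and 7.84%. TATAAA, the TATA box, occurred in 4.68%, against 5.83% and 12.6%. GAGGAAGT, a site of the myeloid factor PU.1, occurred in 1.91%, against 3.19% and 3.13%, and TGANTCA, the AP-1 site, in 3.81%, against 4.26% and 6.99%. A palindromic NRF1 motif of 10 letters occurred in 3.12%, against 3.31% and 1.33%. All motifs were searched on both strands, and a match only says that the letters are there. The median CpG ratio was 0.822 (0.799 to 0.843) for the members, 0.849 (0.840 to 0.856) at peaks with a partner, 0.778 (0.761 to 0.793) at peaks called only in PBS and 0.567 over all windows. The window lay fully under the peak in 144 members (25%), against 55.1% of peaks with a partner and 30.3% of peaks called only in PBS.

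The 769 members stood at 767 genes, 3.50% of the 21900 protein-coding genes and 16.2% of the 4747 genes (21.7%) with any gene-end lysine peak. The median length of the members' genes, from end to end, was 22913 bp (21035 to 26386), against 21763.5 bp (20624 to 22539) for genes with a partnered peak and 17146 bp over all protein-coding genes. Genes under 5 kb made up 10.0%, genes of 5 to 20 kb 34.3%, genes of 20 to 100 kb 44.3% and genes of 100 kb or more 11.3% (9.19 to 13.8). The share of 100 kb or more was 8.65% (7.80 to 9.57) for genes with a partnered peak and 11.9% (10.1 to 14) for genes with a peak called only in PBS. The longest genes with a member were Immp2l (931528 bp), Foxp1 (597405 bp), Smyd3 (566094 bp), Vps13b (560112 bp) and Gmds (519180 bp). Immp2l, an inner membrane peptidase of mitochondria, had the start peak as its 1 lysine peak and 0 PBS peaks over the whole gene. Gmds, an enzyme of GDP-fucose synthesis, had 2 more lysine peaks, of 1027 and 299 bp, and 0 PBS peaks. Foxp1, a forkhead transcription factor, had a 932 bp member at its start, and its body held 6 more lysine peaks and 2 PBS peaks.

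Among chromosomes, the share of gene-end lysine peaks without a PBS partner was highest on the X chromosome, at 34.9% (21.0 to 50.9, 15 of 43). Over all gene-end lysine peaks the share was 16.1%. On the autosomes it ran from 11.6% on chromosome 11 (49 of 424) to 25.2% on chromosome 14 (18.6 to 32.6, 40 of 159). The intervals of the X chromosome and chromosome 14 overlap, and no test was made. The X chromosome also held 2.85% of the gene-end peaks called only in PBS, against 1.95% of the members and 0.697% of lysine gene-end peaks with a partner.

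A PBS peak lay elsewhere on the gene for 156 members (20.3%, 17.5 to 23.3). Over all protein-coding genes 34.0% carried a PBS peak, but that share is not a like measure. It counts PBS peaks anywhere on the gene, whereas the rule bars a PBS peak over the member. For gene-end lysine peaks with a partner, a further PBS peak lay elsewhere on the gene in 16.8% (15.6 to 18.0). For gene-end peaks called only in PBS, a lysine peak lay elsewhere in 15.9% (13.8 to 18.1). The share grew with gene length. It was 3.90% for members on genes under 5 kb, 12.9% (9.12 to 17.6) at 5 to 20 kb, 19.6% (15.5 to 24.2) at 20 to 100 kb and 59.8% (48.7 to 70.1) at 100 kb or more. For peaks with a partner the same shares were 4.47%, 8.20% (6.82 to 9.75), 19.9% and 53.2% (47.8 to 58.5). For peaks called only in PBS, the shares with a lysine peak elsewhere were 3.88%, 9.14%, 18.6% and 35.8% (27.7 to 44.6). The 2 one-library sets search lists of unequal length, 11926 PBS peaks and 9805 lysine peaks. With the PBS list cut to the length of the lysine list, the overall share was 15.4% of the 1062 members then counted. The shares by gene length were not recomputed. The members' genes with a PBS peak elsewhere had a median length of 56551 bp, and those without one 20513 bp.

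Of these 156 members, 109 had 1 such PBS peak and 20 had 3 or more, and the nearest was a median of 14924.5 bp away. At 93 of them (59.6%) a lysine peak overlapped at least 1 of the gene's PBS peaks, so that both libraries had a call on the gene and differed at its end. Counted by PBS peak, 111 of 233 (47.6%) were overlapped by lysine. Neither a PBS peak nor another lysine peak lay on the gene for 585 members (76.1%, 72.9 to 79). Although the choice of members adds lysine bp to each gene or its flank, 85 of the 767 genes (11.1%, 8.95 to 13.5) had fewer bp under lysine peaks than under PBS peaks from end to end.

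**Figure D3:**
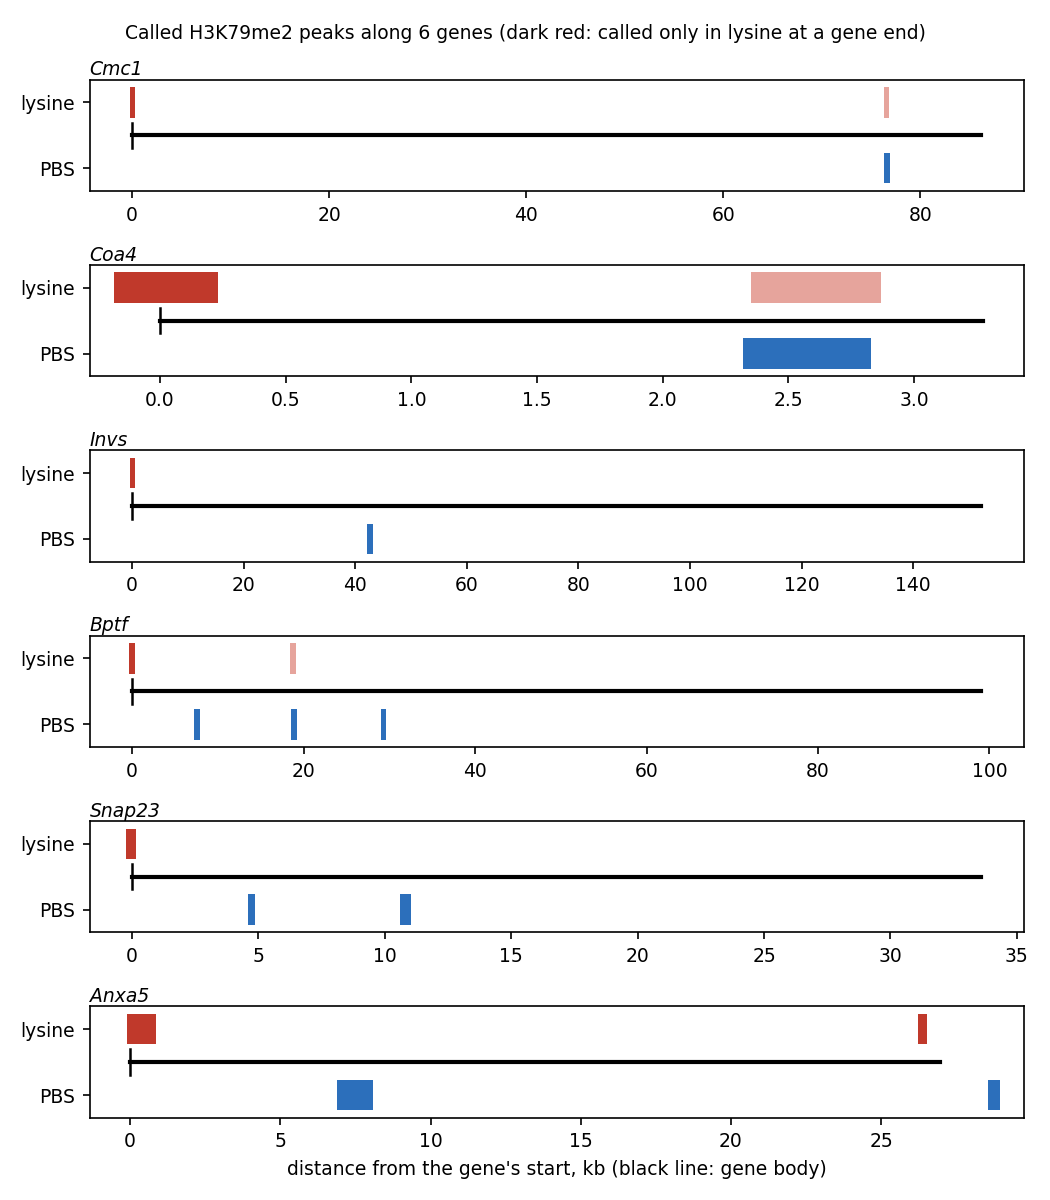
Called peaks along 6 genes, with distance from the gene's start in kb (horizontal), lysine peaks above the gene line (dark red where called only in lysine at a gene end, pale red otherwise) and PBS peaks below it in blue. The narrowest peaks are drawn at a minimum width so that they can be seen. At Cmc1 and Coa4 both libraries have a peak in the gene body, while at Invs and Snap23 the PBS peaks have no lysine peak over them.

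The gene maps show these arrangements. At Coa4 the lysine list held the 414 bp start peak and a 516 bp peak in the body, and the PBS list held only the body peak, of 510 bp. At Cmc1 both lists held a peak deep in the gene, of 370 bp at 76587.5 bp from the start in lysine and of 488 bp at 76619.5 bp in PBS. At Invs the lysine list held the start peak alone and the PBS list a 377 bp peak at 42660 bp into the gene. At Snap23, which encodes a SNARE protein of secretion, PBS peaks of 282 and 470 bp lay 4719.5 and 10815.5 bp into the gene with no lysine peak over them. At Bptf, a subunit of the NURF chromatin remodeller, 1 of the 3 PBS peaks had a lysine peak over it.

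Anxa5 and Xpc were the genes with 2 members each. Anxa5, which encodes the phosphatidylserine-binding annexin A5, had 941 bp at its start and 276 bp near its 3′ end, and a PBS peak of 1204 bp lay 7484.5 bp into the gene with no lysine peak over it. Xpc, the damage sensor of nucleotide excision repair, had members of 417 and 370 bp, each also within 1 kb of an end of a neighbouring gene, and 0 PBS peaks on the gene. A second protein-coding gene end lay within 1 kb of 121 members (15.7%, 13.2 to 18.5), and there the peak cannot be assigned to 1 gene. The share was 21.2% (19.9 to 22.5) for peaks with a partner and 14.8% (12.8 to 17.0) for peaks called only in PBS.

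PBS peaks were rarely close. The median distance from a member to the nearest PBS peak was 31642 bp (27939 to 36397), against 38846 bp (35264 to 43562) from a gene-end peak called only in PBS to the nearest lysine peak. A PBS peak lay within 1 kb of 7 members (0.910%), within 5 kb of 77 (10.0%), within 10 kb of 182 (23.7%) and within 100 kb of 624 (81.1%). For peaks called only in PBS the shares within 5 and 10 kb were 8.28% and 17.0%. Here too the PBS list searched was longer than the lysine list. With the PBS list cut to the length of the lysine list, the 1062 members then counted had a median distance of 38165.5 bp. The 7 members within 1 kb, named because they are few, lay at Pqlc3 (20 bp), Lrch1 (75 bp), Pprc1 (266 bp), Tspoap1 (496 bp), Rap1b (604 bp), Acsl4 (641 bp) and Zmiz1 (917 bp). The farthest was at Tspan14, a tetraspanin gene, with 2950767 bp to the nearest PBS peak. It was followed by Pacrgl (2514297 bp), Mfsd1 (1421343 bp), Tigd2 (1412772 bp) and Bet1 (1210254 bp, a SNARE of transport from the endoplasmic reticulum to the Golgi). Among these 5, Mfsd1 had the highest fold enrichment, 5.91 over 466 bp, and Bet1 the lowest, 3.53 over 291 bp.

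**Figure D4:**
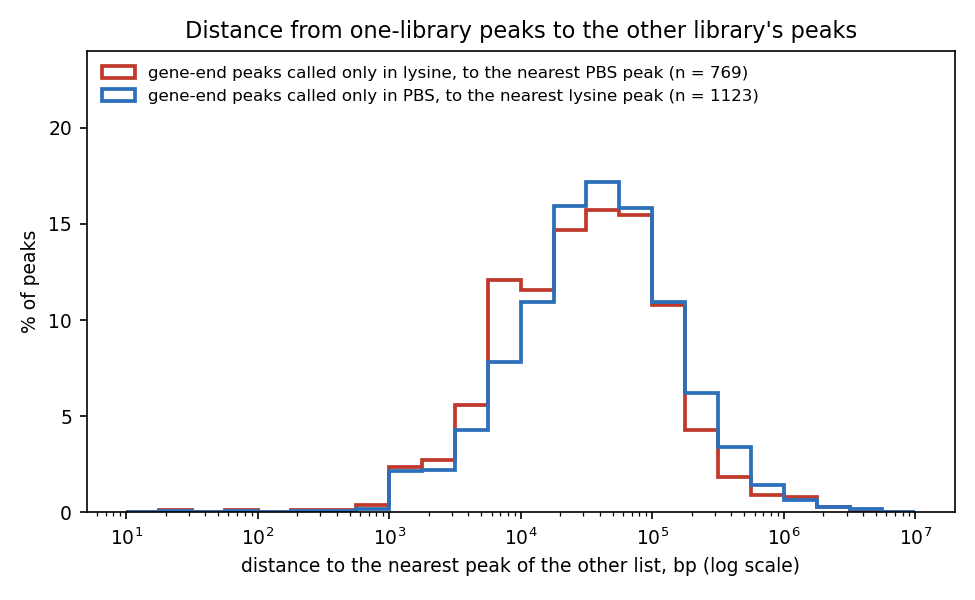
Distance in bp (horizontal, log scale) to the nearest peak of the other list against the percent of peaks (vertical), for 769 gene-end peaks called only in lysine (red) and 1123 called only in PBS (blue). Both curves have a single broad hump between 1 kb and 1 Mb, with medians of 31642 and 38846 bp. The lists searched were of unequal length, 11926 PBS peaks for the red curve and 9805 lysine peaks for the blue.

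Members stood at 146 genes of the 30 gene lists and classes examined and at 621 genes in none of them. Lists differ in how many of their genes carry any gene-end lysine peak, so for several of them the members are also given as a share of those genes. Set against 3.50% of all protein-coding genes, the share was highest for H3K79 methylation and elongation factors, where 4 of 35 genes (11.4%, 3.20 to 26.7) had a member. Of the 23 with any gene-end lysine peak, these 4 were 17.4%, against 16.2% over all genes. They were Rtf1 and Cdc73, subunits of the Paf1 elongation complex, Supt5, a subunit of the elongation factor DSIF, and the deacetylase gene Sirt1. The Rtf1 member covered 313 bp at chr2:119674926-119675238 with a fold enrichment of 4.90, and the Sirt1 member 1048 bp with 4.98. None of the 4 genes had a PBS peak elsewhere on it.

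Lists of immune function held 1 to 3 members each, with shares on both sides of the 3.50% of all protein-coding genes and intervals that include it. Cytokines, chemokines and their receptors had 3 of 38 (7.89%, 1.66 to 21.4), which were 3 of the 12 with any gene-end lysine peak, at Il18, Il1r2 (the decoy receptor for interleukin-1) and Il1a. The Il1a member was 1185 bp wide at chr2:129309144-129310328 with a fold enrichment of 3.55, and the Il18 member 416 bp with 3.95. Antigen presentation had 2 of 34 (5.88%, 0.720 to 19.7), which were 15.4% of 13, at Cd74, the invariant chain of MHC class II, and Psmb10, an immunoproteasome subunit. At Cd74 an 828 bp member with a fold enrichment of 3.42 lay at one end, and farther into the gene a lysine peak of 1613 bp overlapped a PBS peak of 900 bp. Dendritic cell identity had 1 of 31 (3.23%), or 1 of 7 with a gene-end lysine peak, at Cd40, a costimulatory receptor, with a −log10 q of 1.39. Toll-like receptor and NF-κB signalling had 1 of 40 (2.50%), or 1 of 13, at Chuk, the kinase IKKα. The interferon response had 1 of 33 (3.03%), or 1 of 10, at Zbp1, a sensor of left-handed nucleic acid. At Chuk both lists also held a peak inside the gene, of 455 bp in lysine and 499 bp in PBS.

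Pathways that handle amino acids had shares of 3.33% to 9.09%, against 3.50% over all genes, and of 9.09% to 14% among their genes with a gene-end lysine peak, against 16.2%. Lysine and amino acid transport and use had 1 of 30 (3.33%, 0.0844 to 17.2), or 1 of 9 with a gene-end lysine peak, at Slc36a1, a proton-coupled amino acid transporter, with a fold enrichment of 4.66 over 455 bp. The mTORC1 and amino acid sensing list had 3 of 42 (7.14%, 1.5 to 19.5), or 3 of 23, at Tsc1 (fold enrichment 5.06), Rptor (4.63) and Rraga (4.53), which encode an inhibitor of the pathway, the Raptor subunit and a Rag GTPase. The integrated stress list had 2 of 32 (6.25%, 0.766 to 20.8), or 2 of 22, at Psat1, of serine synthesis, and Asns, asparagine synthetase, with −log10 q values of 1.73 and 1.53. Translation factors and tRNA synthetases had 6 of 66 (9.09%, 3.41 to 18.7), or 6 of 43, among them the arginyl, alanyl and seryl synthetase genes Rars, Aars and Sars. The Rars member had a fold enrichment of 5.08 and the Aars member 4.62. A peak of both lists lay inside Aars, with 542 bp in lysine and 578 bp in PBS.

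The lists that follow are read against 3.50% of all protein-coding genes and 16.2% of genes with a gene-end lysine peak. Cell cycle and DNA repair had 10 of 102 genes (9.80%, 4.80 to 17.3), which were 19.2% (9.63 to 32.5) of the 52 with a gene-end lysine peak. The strongest were at Anapc1, a subunit of the anaphase-promoting complex (fold enrichment 4.90), and Ercc3, a helicase of TFIIH (4.71). Mitochondrial ribosomal proteins had 7 of 78 (8.97%, 3.68 to 17.6), which were 22.6% (9.59 to 41.1) of 31, led by Mrpl12 (5.71) and Mrps14 (4.66). Zinc finger protein genes, most of them transcription factors, had 25 of 397 (6.30%, 4.12 to 9.16), which were 21.6% (14.5 to 30.1) of 116, led by Zfp839 (5.34) and Zfp444 (4.75). Proteasome and ubiquitin genes had 2 of 104 (1.92%), Usp47 and Ube2j2, which were 3.85% (0.469 to 13.2) of 52. Histone genes had 1 of 102 (0.98%), H2ac4, which was 3.33% (0.0844 to 17.2) of 30. Cytosolic ribosomal proteins had 5 of 87 (5.75%), which were 9.62% (3.20 to 21.0) of 52. Of the intervals in this paragraph for genes with a gene-end lysine peak, only that of the proteasome and ubiquitin list leaves out 16.2%. That list is 1 of the 30 examined, and no test was made.

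Other lists had shares of 4.62% to 7.55% of all their genes, and of 9.09% to 16.9% of their genes with a gene-end lysine peak, against 3.50% and 16.2% over all genes. Vesicle traffic had 8 of 106 (13.8% of the 58 with a gene-end lysine peak), led by Snap23 and Vps13b, and lysosome and autophagy 5 of 69 (11.9% of 42), led by the autophagy genes Atg4d (fold enrichment 4.86) and Atg14 (4.81). Chromatin regulators had 6 of 88 (6 of 43 with such a peak), led by the H3K4 methyltransferase gene Setd1a (4.72) and Bptf (4.75), and splicing factors 5 of 80 (9.09% of 55), led by Snrpf (5.86) and Srsf4 (4.43). Cell death and ferroptosis had 4 of 54 (14.8% of 27), led by Gclm (5.47), the modifier subunit of the first enzyme of glutathione synthesis. Oxidative phosphorylation had 4 of 84 (12.1% of 33), led by Uqcrfs1, and complex I genes 3 of 49 (15.8% of 19), led by Ndufaf5 (4.31). Rab GTPases had 3 of 59 (11.1% of 27), led by Rab32, and Tmem genes 11 of 238 (16.9% of 65), led by Tmem59 (5.06) and Tmem127 (4.42).

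Solute carriers had 13 of 389 (3.34%, 1.79 to 5.65), against 3.50% over all genes. These were 17.3% (9.57 to 27.8) of the 75 with a gene-end lysine peak, against 16.2% over all genes. Of the 13, 6 belonged to the mitochondrial carrier family Slc25, a grouping made after the values were seen. The Slc25 family has 47 genes, 21 of them with a gene-end lysine peak. A family picked out in this way cannot be shown to stand out by its counts, which were not tested. Slc25a12, an aspartate-glutamate carrier, had the strongest of the 13, with a fold enrichment of 5.04.

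Genes of other tissues and predicted genes rarely carried a gene-end lysine peak of any kind, which 21.7% of all protein-coding genes had. Over all genes 3.50% had a member, or 16.2% of those with a gene-end lysine peak. The list of neuronal, hepatic and muscle genes had 1 of 50 (2.00%, 0.0506 to 10.6), its 1 gene with such a peak, at the neuronal gene Syn1. Markers of macrophages, neutrophils and other blood cells had 1 of 46 (2.17%, 0.055 to 11.5), or 1 of 3 with such a peak. It lay at Camp, a neutrophil antimicrobial peptide gene. The intervals of these 2 lists include 3.50%. The Camp member was 300 bp wide with a fold enrichment of 4.67, and the Syn1 member 376 bp with 3.82. Olfactory receptor genes had 2 of 1110 (0.180%), the 2 with any gene-end lysine peak, at Olfr1509 and Olfr229. None of the 1110 had a PBS peak on the gene, but that count leaves out PBS peaks in the flanks. It is therefore not a like measure to the gene-end count in lysine. Predicted genes had 9 of 1748 (0.515%), which were 10.3% of the 87 with such a peak, led by 2700049A03Rik, with a fold enrichment of 5.62, and Gm52799, with 4.63.

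**Figure D5:**
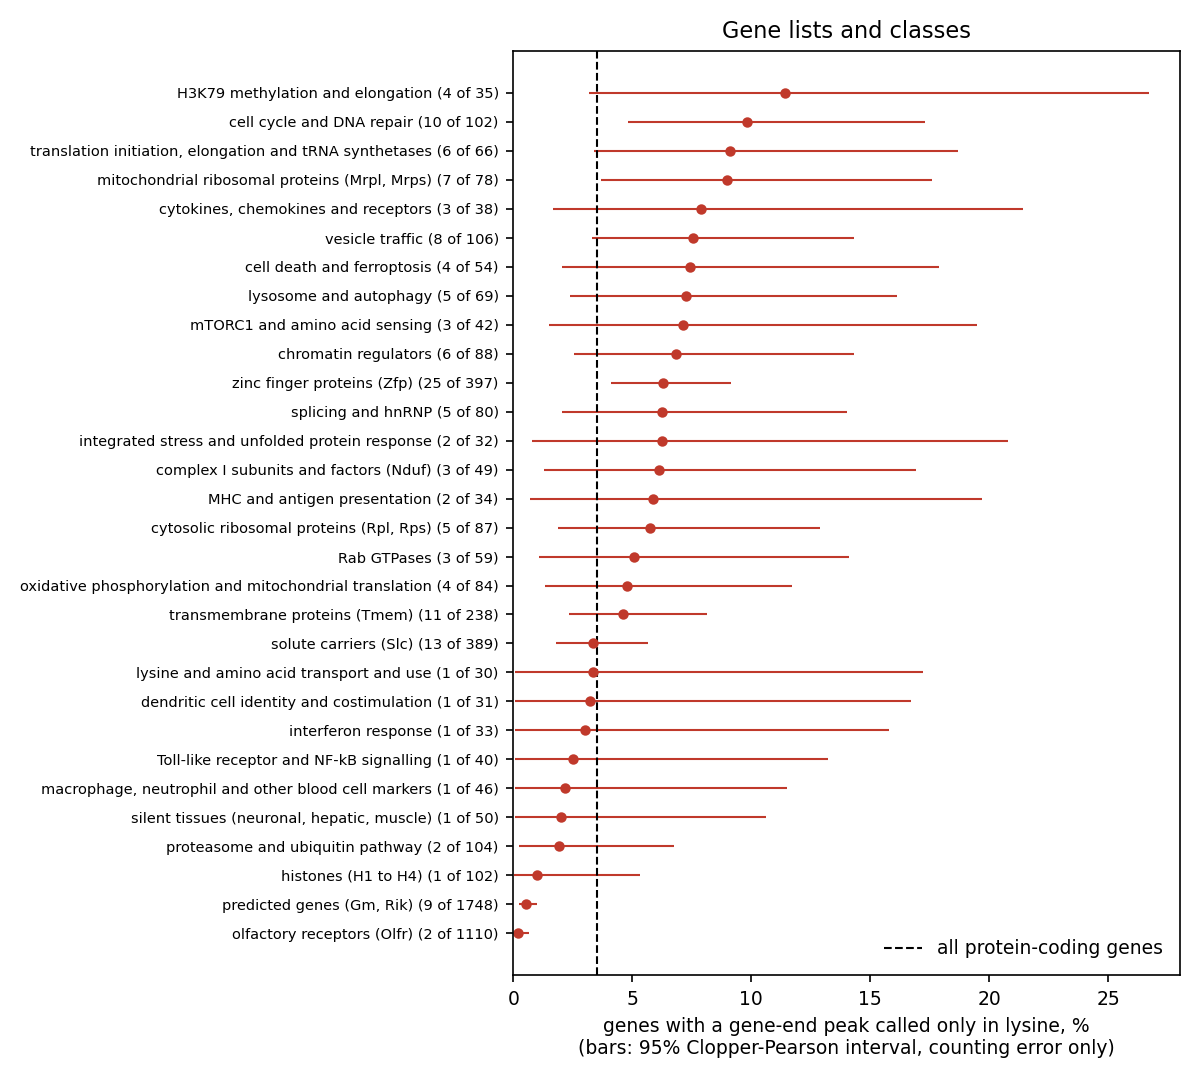
Percent of the genes of each list or class that carry a gene-end peak called only in lysine (horizontal), with 95% Clopper-Pearson intervals for counting error as bars and 3.50%, the value over all protein-coding genes, as a dashed line. The highest point is 11.4% for H3K79 methylation and elongation and the lowest 0.180% for olfactory receptors.

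Several peaks lay close to the limits of the definition. Just inside 1 kb of a gene end were the members at Gm52799 (982 bp), Jade2 (967.5 bp), Slc25a16 (960.5 bp), Rap1gds1 (955 bp) and Bach1 (952.5 bp). Just outside it, and therefore not members, were lysine peaks without PBS overlap near Sec24b (1031 bp), Pkd1 (1056.5 bp), Prss57 (1057.5 bp), Ssr3 (1069 bp) and Slc7a6 (1069.5 bp). The gene-end lysine peaks kept out by the smallest overlap with PBS were at Phf21a (5 bp), Dus3l (12 bp), 2700097O09Rik (25 bp), Tcea1 (67 bp) and Alg14 (79 bp). At Tcea1 an 840 bp lysine peak and a 395 bp PBS peak met at one end of the gene.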

How the data were processed

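H3K79me2 ChIP-seq was done on lysine- and PBS-treated BMDCs, with 1 H3K79me2 library and 1 input library in each condition. Input data were not used here. Per the submitters' processing notes, the tools were MACS2 2.1.2 and Bowtie2 2.3.4.1, with cutadapt 1.18 and Trimmomatic 0.38 beside FastQC, Picard and ChIPseeker, on build GRCm38. Tool roles and settings were not given in the sources used here. Peaks were deposited by the authors as a broad and a gapped list for each library. Each peak has, as deposited, a score, a fold enrichment (a linear ratio over local background), a −log10 p and a −log10 q. The lowest −log10 q is 1.32 in lysine and 1.37 in PBS. These values depend on depth, which is unknown because the lists give no read totals.

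Overlaps were computed with numpy 2.4.6 and pandas 2.3.3 in Python 3.11.15 and checked against bedtools 2.31.1 (0 differences) and on 600 simulated peaks (0 classed wrongly). Intervals came from scipy 1.17.1, and figures from matplotlib 3.10.9. Genes, strands and start windows came from RefSeq tables of GRCm38.p6. Strand was read from the promoter table, which covers 17492 of the 21900 genes. Of 1186 list entries 1181 matched, 18 through a synonym. "Elsewhere on the gene" means at least 1 bp of a peak between the gene's ends. The members and the gene lists were chosen with earlier results of these data known. Named genes were the 10 strongest, 8 widest, 5 highest in fold, 5 farthest from PBS peaks and 5 on the longest genes, genes with 2 members, the 1 or 2 strongest of each list, and the 5 nearest each limit of the definition. Others are named for their role in a list or as said in the text.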

Additional observations from a re-analysis of the deposited data

How the results depend on the processing

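No paired analysis was possible because each condition had 1 library and the labels carry no replicate numbers, and for the same reason no library could be left out. Of 12 alternatives, 10 kept the number of members within 1.5 times of 769, from 575 to 1062. The value of 1062 came with the PBS list cut to the length of the lysine list, a cut that can only add members. A minimum −log10 q of 5 left 83 members, and a minimum fold enrichment of 4 left 398. Under the minimum −log10 q of 5, 100% of members with strand were at the start, the median width was 448 bp, the median gene length 19644 bp and the median distance to a PBS peak 27772 bp. With fold enrichment of 4 or more the median width was 398.5 bp. With the PBS list cut to the lysine length the width was 396 bp and the distance 38165.5 bp. The share with a PBS peak elsewhere on the gene was then 15.4%. When an overlap under 50% of the lysine peak did not count, the width was 426 bp and the distance 15641 bp. The share with a PBS peak elsewhere was 23.8% with the midpoint within 2 kb and 16.7% with a −log10 q of 2 or more in both lists. The share at the start was 98.5% within 500 bp and 92.6% within 2 kb. The other shares and medians, under the remaining alternatives, moved by less than their counting interval. Without replicates, and with depth unknown, a difference between libraries in read number or enrichment cannot be told apart from the treatment.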
